A study of Mus musculus with 72 samples.

Results

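The daily time course of the liver transcriptome was examined in 18 wild-type (WT) mouse livers, 3 at each of ZT0, ZT4, ZT8, ZT12, ZT16 and ZT20, where ZT (zeitgeber time) counts the hours after lights on. They were chosen by title, as the WT livers of the cohort made for the SIRT6 knockout, and are 18 of the 72 arrays of the series. The strain label of these mice is 129 mixed, the genotype label is WT, and all were kept in 12 h of light and 12 h of dark. The labels say nothing of a floxed allele, nor of age, sex or feeding. The other cohort's 18 WT livers, of strain C57BL/6 and sampled at the same times, served for comparison, and no knockout array entered any comparison. Replicates are numbered in the labels but not tied to separate mice, and the spread that p-values measure here may be partly technical.

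The mammalian clock is a feedback loop of transcription factors. A dimer of BMAL1 (gene Arntl) with CLOCK or NPAS2 activates genes through E-box sites, among them the Per and Cry genes, whose proteins repress the dimer, and the REV-ERB genes Nr1d1 and Nr1d2, whose proteins repress Arntl. The PAR bZIP factors DBP, TEF and HLF act through D-box sites, which the repressor NFIL3 also binds, and carry the rhythm to output genes. In liver, where feeding and body temperature also drive rhythms, the outputs include lipid, glycogen, bile acid and amino acid metabolism.

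Each array read 1 biotin-labelled liver RNA. Levels are given as log2(intensity + 16), a scale that understates changes of dim genes. Array medians of intensity lay between 43.9 and 52.7, and precision is limited by there being 3 arrays a time. The hepatocyte genes Alb, Ttr and Apoa1 stood at 12.4 or higher on each of the 18 arrays. The Y-linked genes Kdm5d, Eif2s3y and Uty ran from 7.32 to 9.06 and Xist from 5.55 to 6.40 over these arrays. The array ZT12 replicate 1 stood apart, with a mean correlation of 0.938 to the other arrays, the lowest of the 18. Lcn2, an acute phase gene that inflammation induces, ran from 7.38 to 12.48 over the arrays and from 7.84 to 12.48 within ZT12 alone, with its highest time mean at ZT8 (11.56) and its lowest at ZT0 (8.25). Markers of Kupffer cells, the liver's macrophages, were also uneven: the summed intensity of 15 markers was 6453 to 16080 at ZT0, 8427 to 17750 at ZT4, 13100 to 20650 at ZT8, 4927 to 20290 at ZT12, 10010 to 23000 at ZT16 and 5828 to 14660 at ZT20. None of those 15 markers was called rhythmic, and 1 of 26 acute phase genes was (3.85%), against 10.1% of all genes. With such spread within a time, a missing call does not show that a gene was constant. The part of these cells in the time courses was not tested. In bulk tissue, fewer cells of a type and less RNA per cell cannot be told apart.

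A 24 h cosine was fitted to each of 13308 genes with limma, and a gene was called at a Benjamini-Hochberg adjusted p under 0.05. It called 1349 genes, which is 10.1% of those tested. Amplitude here is the fitted peak minus the fitted trough in log2 units, and its median over the called genes was 0.475, so most daily changes were small. An amplitude of at least 1 was reached by 157 of them. Differences of any shape among the 6 times, tested with a moderated F, were called in 410 genes, or 3.08%, and 386 of these were also called by the cosine. Adding a 12 h component called 0 genes (0%) in limma, with 869 at an unadjusted p under 0.05, a smallest adjusted p of 0.314, and 2 genes called with array weights.

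The clock itself held several of the largest daily swings. Of 17 core genes in 4 groups (activators; period, cryptochrome, CIART and DEC repressors; REV-ERB and ROR receptors; PAR bZIP factors with NFIL3), 14 were called, and each of these was called under all 4 array scalings that were tried. An 18th gene of these groups that the arrays measure was too dim to be tested. Per2 is not among the 17. Their peaks followed each other round the day, the REV-ERB genes in the morning, the PAR bZIP and Per genes towards lights off, Cry1 in the dark phase and the activators before lights on.

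The activators peaked late in the dark phase. Arntl was measured at 9.15, 9.43 and 8.97 at ZT0, 8.91, 7.67 and 8.61 at ZT4, 5.91, 5.67 and 6.00 at ZT8, 7.24, 6.79 and 6.77 at ZT12, 8.71, 8.89 and 8.84 at ZT16, and 9.16, 9.19 and 9.29 at ZT20. All 3 arrays at ZT8 were lower than every array of any other time. The fitted amplitude was 3.30 ± 0.35 (SE), a 9.86-fold range, with a peak at ZT21.2 ± 0.40 h and a limma adjusted p of 4.5e-05. Npas2, the partner of BMAL1 that can stand in for CLOCK, read 8.59, 8.88 and 8.39 at ZT0, 8.26, 7.04 and 7.92 at ZT4, 5.84, 5.03 and 5.79 at ZT8, 5.95, 5.17 and 5.66 at ZT12, 6.82, 7.71 and 6.62 at ZT16, and 8.77, 8.83 and 9.02 at ZT20. Its ZT8 and ZT12 arrays were the 6 lowest, and the amplitude was 3.68 ± 0.28 with a peak at ZT22.4 (limma adjusted p = 5.1e-06). Clock moved less, with an amplitude of 1.12 ± 0.12 and a peak at ZT21.7. Nfil3, the repressor at D-boxes, peaked near these at ZT20.7 with an amplitude of 2.05 ± 0.28.

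**Figure D1:**
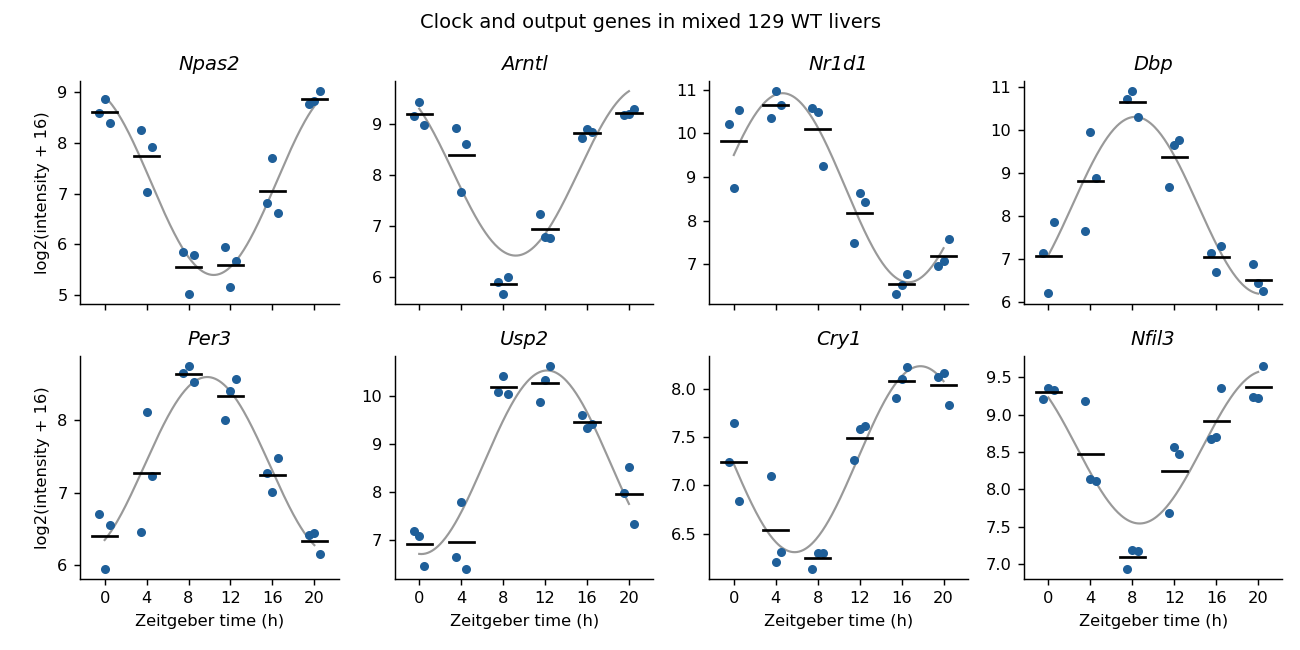
Level (log2(intensity + 16), each panel on its own axis) of 8 clock and output genes against zeitgeber time in hours: points are the 3 arrays of a time, black bars their means and grey lines the fitted 24 h cosine. Arntl is lowest at ZT8, near 5.9, while Dbp is highest there, and Nr1d1 falls to between 6.32 and 6.76 at ZT16.

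The REV-ERB genes peaked in the light phase and included the largest amplitude of any called gene. Nr1d1 was measured at 10.23, 8.74 and 10.53 at ZT0, 10.36, 10.97 and 10.66 at ZT4, 10.58, 10.50 and 9.26 at ZT8, 7.48, 8.63 and 8.42 at ZT12, 6.32, 6.52 and 6.76 at ZT16, and 6.95, 7.08 and 7.57 at ZT20. Its lowest arrays were those of ZT16, and the times ZT0, ZT4 and ZT8 overlapped one another. The amplitude was 4.34 ± 0.35, a 20.2-fold range, with a peak at ZT4.65 ± 0.31 h (limma adjusted p = 6e-06). Nr1d2 followed at ZT7.21 ± 0.38 h with an amplitude of 2.48 ± 0.25. Rora, which activates at the sites that the REV-ERBs repress, changed by only 0.368 ± 0.067 and peaked at ZT21.1 (limma adjusted p = 0.0061).

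The PAR bZIP factors came next. Dbp read 7.14, 6.21 and 7.86 at ZT0, 7.64, 9.94 and 8.88 at ZT4, 10.73, 10.90 and 10.31 at ZT8, 8.66, 9.65 and 9.77 at ZT12, 7.13, 6.70 and 7.30 at ZT16, and 6.87, 6.43 and 6.25 at ZT20. The 3 arrays of ZT8 were higher than all others, and those of ZT4 were spread over more than 2 log2 units. Its amplitude was 4.12 ± 0.41, a 17.4-fold range, and its peak lay at ZT8.28 ± 0.38 h (limma adjusted p = 2.6e-05). Tef peaked at ZT9.90 with 1.85 ± 0.25, although a dimmer probe set of Tef gave an amplitude of 0.176. Hlf had 0.484 ± 0.18 and did not pass (adjusted p = 0.17), but with the mean of the acute phase genes as a covariate it had 0.727 and passed (limma adjusted p = 0.00124).

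Among the repressors, Per3, Ciart and Per1 peaked from ZT9.69 to ZT11.4 and Cry1 at ZT17.8. Per3 read 6.71, 5.96 and 6.56 at ZT0, 6.46, 8.10 and 7.23 at ZT4, 8.64, 8.74 and 8.52 at ZT8, 8.01, 8.40 and 8.57 at ZT12, 7.26, 7.01 and 7.47 at ZT16, and 6.42, 6.44 and 6.15 at ZT20. Its amplitude was 2.44 ± 0.24 with a peak at ZT9.78 (limma adjusted p = 2.6e-05). Ciart, which represses the activator dimer, had 3.44 ± 0.54 and a peak at ZT9.69, and Per1 had 2.08 ± 0.36 with a peak at ZT11.4. Cry1 read 7.24, 7.65 and 6.84 at ZT0, 7.09, 6.20 and 6.31 at ZT4, 6.14, 6.30 and 6.30 at ZT8, 7.26, 7.58 and 7.61 at ZT12, 7.91, 8.10 and 8.23 at ZT16, and 8.13, 8.17 and 7.84 at ZT20. The arrays of ZT16 and ZT20 overlapped, and the amplitude was 1.93 ± 0.19 (limma adjusted p = 2.5e-05). Bhlhe40, which encodes DEC1, had 1.18 ± 0.18 and a peak at ZT11.8, whereas Bhlhe41 (1.42 ± 0.38, adjusted p = 0.057) and Cry2 (0.381 ± 0.15, adjusted p = 0.22) did not pass. Bhlhe41 lay near the threshold: it passed under 5 of 15 other settings and in 4 of 18 single omissions, each ZT4 array among them.

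Replicate arrays of 1 time did not always stand at the same place in the cycle. For each of the 14 called core genes, an array was set against the mean of its other replicates and against the means of the next and the previous time. ZT4 replicate 2 was nearer to the ZT8 mean in 7 of the 14 genes, and ZT4 replicate 1 was nearer to the ZT0 mean in 12. ZT0 replicate 2 was nearer to the ZT20 mean in 11, and ZT0 replicate 3 to the ZT4 mean in 8. ZT8 replicate 3, ZT20 replicate 2 and ZT20 replicate 3 were each nearer to the next time in 7. Without ZT4 replicate 2 the peak of Per3 was at ZT10.1, that of Dbp at ZT8.46 and that of Tef, the gene that moved most, at ZT10.3.

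Promoter windows of 6 genes are shown because they hold the sites named above and belong to genes of different peak time. They run from 250 bases before to 50 after the annotated start, 5′ to 3′ on the gene's strand, from RefSeq on GRCm38.p6, which is the reference and not the sequence of these mice. Capitals mark the motifs searched on both strands, the E-box CACGTG, the D-box TTATGNAA, the RORE bound by REV-ERBs and RORs (AA, any base, then TAGGTCA), and the heat shock element (GAA, TTC and GAA, each parted by any 2 bases). Ciart (chr3:95882179-95882478, minus strand) and Cry1 (chr10:85185005-85185304, minus) hold E-boxes, Per1 (chr11:69098699-69098998, plus) an E-box and a D-box, and Per3 (chr4:151044616-151044915, minus) D-boxes alone. Arntl (chr7:113207261-113207560, plus) holds a RORE, and the chaperone gene Hsph1 (chr5:149636266-149636565, minus) holds an E-box and, on the other strand, a heat shock element just after its start.
Ciart: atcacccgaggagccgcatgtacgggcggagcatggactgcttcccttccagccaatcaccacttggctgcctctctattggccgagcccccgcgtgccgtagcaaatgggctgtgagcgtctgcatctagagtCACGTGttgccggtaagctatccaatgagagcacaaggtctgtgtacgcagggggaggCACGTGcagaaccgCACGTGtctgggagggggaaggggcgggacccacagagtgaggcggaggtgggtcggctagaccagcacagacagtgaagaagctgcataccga
Per3: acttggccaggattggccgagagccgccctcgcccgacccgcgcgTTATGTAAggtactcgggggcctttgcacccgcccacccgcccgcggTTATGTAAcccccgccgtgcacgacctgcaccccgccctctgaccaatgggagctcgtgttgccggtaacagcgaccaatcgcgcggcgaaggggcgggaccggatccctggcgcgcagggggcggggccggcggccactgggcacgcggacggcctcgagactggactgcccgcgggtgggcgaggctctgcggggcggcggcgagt
Per1: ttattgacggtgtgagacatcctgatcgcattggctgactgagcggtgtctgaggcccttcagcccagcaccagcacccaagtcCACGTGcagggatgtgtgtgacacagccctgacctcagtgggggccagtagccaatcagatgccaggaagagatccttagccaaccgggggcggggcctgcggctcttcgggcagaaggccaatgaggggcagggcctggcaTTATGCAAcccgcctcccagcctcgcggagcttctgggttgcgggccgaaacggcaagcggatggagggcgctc
Cry1: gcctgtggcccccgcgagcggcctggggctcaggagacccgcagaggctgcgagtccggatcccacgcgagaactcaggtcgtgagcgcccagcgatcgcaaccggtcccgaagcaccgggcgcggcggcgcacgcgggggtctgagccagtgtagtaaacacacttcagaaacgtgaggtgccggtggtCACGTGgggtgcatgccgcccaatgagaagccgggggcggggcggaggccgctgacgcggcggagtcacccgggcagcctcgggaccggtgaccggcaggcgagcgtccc
Arntl: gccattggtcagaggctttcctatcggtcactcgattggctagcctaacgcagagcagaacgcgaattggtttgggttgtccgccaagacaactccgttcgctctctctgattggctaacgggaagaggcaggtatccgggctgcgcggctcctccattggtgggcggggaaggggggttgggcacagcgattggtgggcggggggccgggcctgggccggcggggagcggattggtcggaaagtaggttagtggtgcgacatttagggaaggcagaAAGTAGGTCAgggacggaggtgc
Hsph1: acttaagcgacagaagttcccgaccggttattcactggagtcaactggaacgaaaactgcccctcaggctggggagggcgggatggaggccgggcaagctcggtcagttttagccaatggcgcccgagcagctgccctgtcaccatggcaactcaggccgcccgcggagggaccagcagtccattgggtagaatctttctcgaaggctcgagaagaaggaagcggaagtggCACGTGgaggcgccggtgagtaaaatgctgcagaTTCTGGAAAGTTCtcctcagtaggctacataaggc

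Over all 32851 windows of the table, 7.15% held the E-box, 3.38% the D-box, 0.219% the RORE and 0.603% the heat shock element. Genes tested had the E-box in 9.63% of 13245 windows. By peak bin of 4 h, called genes had it in 11.4% of windows (ZT0), 10.7% (ZT4), 14.9% (ZT8), 16.3% (ZT12), 15.9% (ZT16) and 11% (ZT20). Among windows of the 16 core genes that the table holds it was in 6 of 21, or 28.6%. The D-box was in 2.22% of windows of genes tested. By peak bin, it was in 1.59% (ZT0), 2.56% (ZT4), 2.97% (ZT8), 5.81% (ZT12, 10 of 172 windows), 6.35% (ZT16, 4 of 63) and 0.787% (ZT20). These shares describe letters in a window and were not tested, and a window without a match says nothing about a factor.

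Genes that work on or beside the clock included several with large swings around lights off. The list of clock kinases, phosphatases and ubiquitin ligases had 9 tested genes, Usp2 and Nampt among them, and no phosphatase. Of the 9, 4 were called (44.4%), and the 2 under all scalings were Usp2 and Nampt. Of 7 clock-linked cell cycle and stress genes, 5 were called (71.4%), all 5 under each scaling. Usp2, a deubiquitinase that acts on clock proteins, read 7.20, 7.08 and 6.46 at ZT0, 6.65, 7.80 and 6.41 at ZT4, 10.08, 10.41 and 10.03 at ZT8, 9.86, 10.32 and 10.61 at ZT12, 9.60, 9.33 and 9.42 at ZT16, and 7.99, 8.53 and 7.34 at ZT20. No array of ZT0 or ZT4 reached those of ZT8, ZT12 or ZT16, and the amplitude was 3.81 ± 0.38, a 14.0-fold range, with a peak at ZT12.2 (limma adjusted p = 2.6e-05). Wee1, the kinase that holds cells before mitosis, had 2.64 ± 0.19 with a peak at ZT11.4 (adjusted p = 3.1e-06). Noct, an NADP(H) phosphatase outside both lists, had 3.17 ± 0.55 at ZT12.1, Coq10b, which binds coenzyme Q, 2.33 ± 0.29 at ZT10.7, and Nampt, the rate-limiting enzyme of NAD salvage, 1.37 ± 0.15 at ZT13.1. Other peaks lay elsewhere: the ubiquitin ligase genes Fbxl21 (0.548 ± 0.097, ZT3.74) and Btrc (0.267 ± 0.062, ZT4.34) peaked in the light phase, called under 3 and 1 of the 4 scalings, and Lonrf3 (1.57 ± 0.21) peaked at ZT18.5. Csnk1e, Csnk2a1, Gsk3b, Fbxw11 and Prkaa2 did not pass, with amplitudes of 0.0805 to 0.355.

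Peaks of the 1349 called genes were spread unevenly over the day as the arrays were deposited. In bins of 4 h, ZT0 held 357 (2.68% of the genes tested), ZT4 held 397 (2.98%), ZT8 held 250 (1.88%), ZT12 held 155 (1.16%), ZT16 held 65 (0.488%) and ZT20 held 125 (0.939%). The bins at ZT4 and ZT8 thus held 48.0% of them. This share rested on the scale of the arrays. The median gene's deviation from its daily mean was -0.0673 log2 units at ZT20 and between -0.00259 and 0.0223 at the other times, and the tested genes' array medians were 7.61 to 7.67 at ZT20 against 7.67 to 7.92 at the other times. The low tertile of tested genes by level had no such dip, with a median deviation of 0.00506 at ZT20, against -0.122 in the middle and -0.0625 in the high tertile. Over all probe sets, where the ZT20 medians were 5.98 to 6.04, a cosine in the array medians had an amplitude of 0.0649 with a peak at ZT13.8 and did not pass (permutation test with 100000 relabellings, two-sided, p = 0.095, adjusted p = 0.285 over 3 array summaries). The 75th percentile (permutation p = 0.30) and the 99th (permutation p = 0.589) did not pass either.

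With quantile normalization 1045 genes were called (7.85%), with the 75th percentiles of the arrays set equal 1065 (8%), and with the medians set equal 842 (6.33%). Genes with a peak in the bins at ZT4 or ZT8 then made up 28.2%, 21.9% and 20.0% of the called genes. The bin at ZT20 held 125 genes as deposited, against 196, 234 and 208. Called genes shared with the deposited values were 903 after quantile normalization (66.9% of the 1349 and 86.4% of the 1045), 898 with equal 75th percentiles and 716 with equal medians. The shared genes all peaked within 2 h of their deposited peak, with median shifts of 0.330 to 0.462 h. Which genes passed changed: of the 397 genes in the ZT4 bin, 119 passed with equal medians, against 237 of the 357 in the ZT0 bin. Some fitted peaks also crossed a bin edge, since the ZT4 bin then held only 96 genes, new calls included. By level, genes of the middle tertile had 304 of 515 calls in the ZT4 and ZT8 bins as deposited and 95 of 345 with equal medians, those of the high tertile 270 of 651 and 54 of 383, and those of the low tertile 73 of 183 and 19 of 114.

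**Figure D2:**
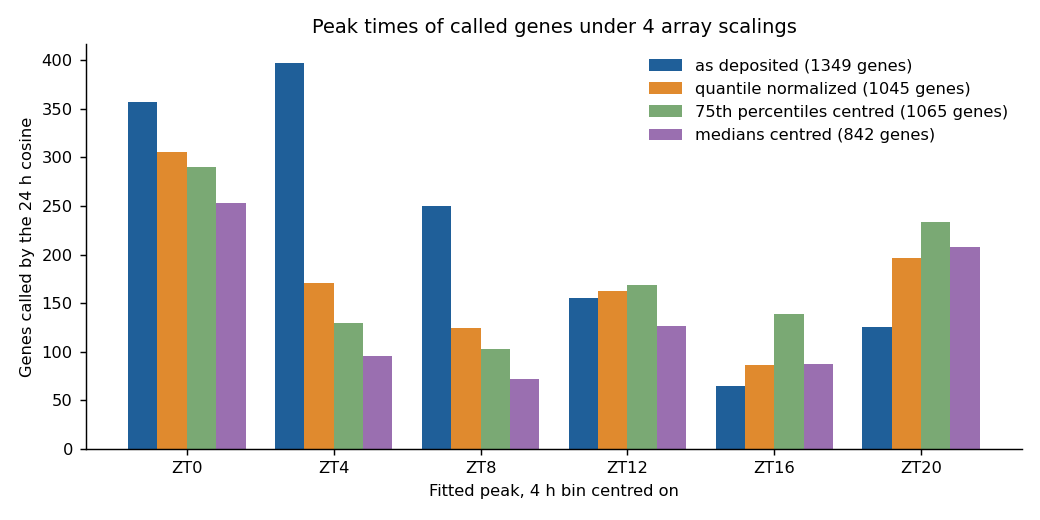
Number of genes called by the 24 h cosine, by the 4 h bin that holds the fitted peak, under 4 scalings of the same 18 arrays. The bin at ZT4 holds 397 genes as deposited and 96 with equal medians, while the bin at ZT20 holds 125 and 208.

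A set of 691 genes, 5.19% of those tested, was called under all 4 scalings. Its bins held 234, 113, 86, 111, 39 and 108 genes at ZT0, ZT4, ZT8, ZT12, ZT16 and ZT20, so that 1 broad group peaked around lights on and a smaller one around lights off. Of the 157 genes with an amplitude of at least 1, 142 were in this set. Scale thus bore mainly on genes of small amplitude.

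Chaperones of the heat shock response, which fold and refold proteins, peaked together in the dark phase. Of 21, 11 were called (52.4%, against 10.1% of all genes) and 10 under all scalings. Peaks of the called genes lay between ZT12.9 and ZT19.0. The list is mainly cytosolic, but Hspd1 and Hspe1 act in mitochondria and Serpinh1 in the endoplasmic reticulum. Of these, Hspe1 was called. Hsph1, an HSP110 chaperone, read 8.26, 8.18 and 7.67 at ZT0, 8.42, 7.56 and 8.14 at ZT4, 7.45, 7.88 and 8.02 at ZT8, 8.68, 8.99 and 8.67 at ZT12, 9.89, 9.76 and 9.19 at ZT16, and 8.63, 8.49 and 8.28 at ZT20. All 3 arrays of ZT16 lay above every other array, and the amplitude was 1.52 ± 0.26 (limma adjusted p = 0.0039). Hsp90aa1, an inducible HSP90, read 10.54, 10.39 and 10.12 at ZT16 and 9.04, 8.66 and 9.22 at ZT8, with an amplitude of 1.17 ± 0.17 and a peak at ZT17.3. Hspb1, a small heat shock protein, had 1.28 ± 0.19 at ZT19.0 and Fkbp4, an HSP90 partner, 0.841 ± 0.12 at ZT18.9. After quantile normalization or with equal 75th percentiles 15 of the 21 were called, and with equal medians 14. The heat shock element was in 4 of 10 windows (40.0%) of called chaperone genes and in 5 of 23 of all tested ones. The cold-inducible RNA-binding protein gene Cirbp ran the other way.

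Cirbp read 7.23, 7.25 and 7.39 at ZT0, 7.18, 7.48 and 7.45 at ZT4, 7.11, 7.07 and 7.20 at ZT8, 6.84, 6.57 and 6.82 at ZT12, 5.86, 6.14 and 6.52 at ZT16, and 6.60, 6.66 and 7.05 at ZT20. It was lowest at ZT16, where the chaperones were highest. Its amplitude was 1.1 ± 0.14 and its peak lay at ZT3.61 (limma adjusted p = 0.0003).

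**Figure D3:**
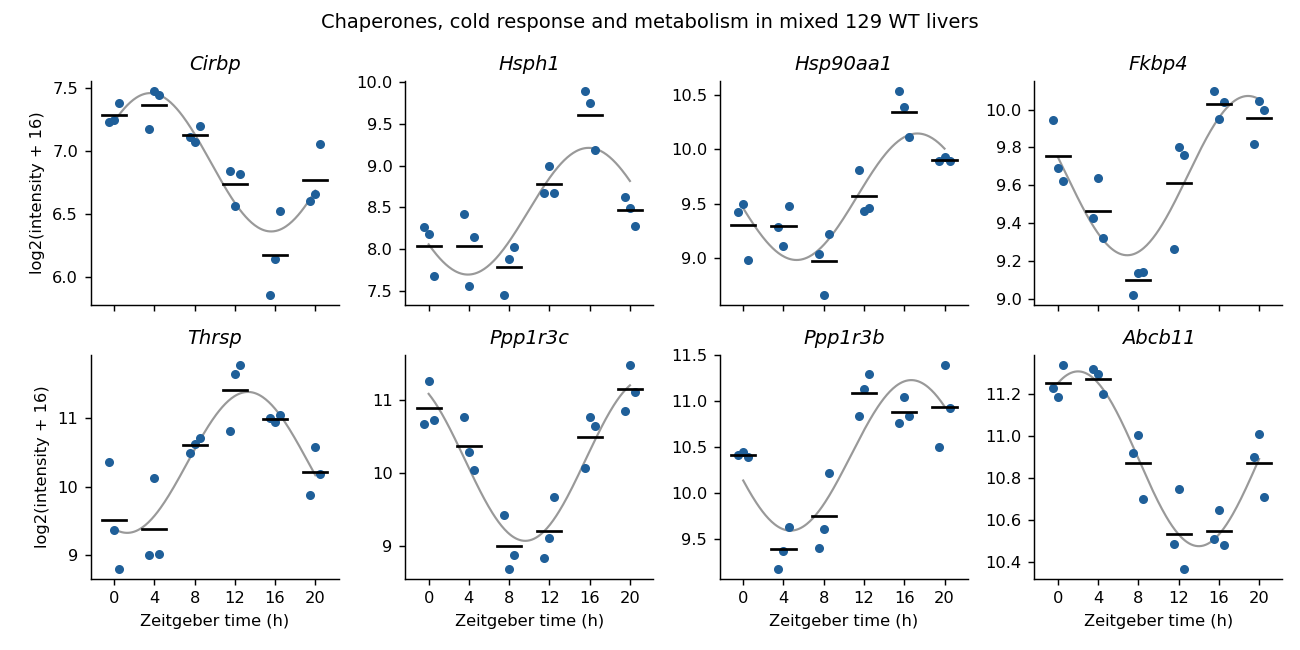
Level (log2(intensity + 16), each panel on its own axis) of Cirbp, 3 chaperone genes and 4 metabolic genes against zeitgeber time in hours: points are the 3 arrays of a time, black bars their means and grey lines the fitted 24 h cosine. Hsph1 and Hsp90aa1 are highest and Cirbp lowest at ZT16.

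Fatty acid and triglyceride synthesis held 10 called genes of 24 (41.7%), 7 of them under all scalings, but they did not peak together: 4 peaks fell in the bin at ZT20, 3 at ZT12, 2 at ZT0 and 1 at ZT16. Thrsp, a regulator of lipogenesis, read 10.36, 9.37 and 8.81 at ZT0, 9.0, 10.12 and 9.02 at ZT4, 10.48, 10.62 and 10.70 at ZT8, 10.81, 11.64 and 11.77 at ZT12, 10.99, 10.94 and 11.04 at ZT16, and 9.88, 10.58 and 10.19 at ZT20. No array of ZT0 or ZT4 reached those of ZT12 or ZT16, and the amplitude was 2.05 ± 0.28 with a peak at ZT13.3 (limma adjusted p = 0.00059). Acly, which makes cytosolic acetyl-CoA, had 0.793 ± 0.13 at ZT20.8. The elongase gene Elovl3 had 2.79 ± 0.43 at ZT21.8, with arrays from 8.40 to 12.29, and Elovl5 0.623 ± 0.094 at ZT0.02. Of 19 cholesterol genes, 1 was called (5.26%), also under all scalings.

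Glycogen genes had scattered peaks, with 5 of 12 called (41.7%), 4 under all scalings, and each in another bin. Ppp1r3c, a subunit that targets protein phosphatase 1 to glycogen, read 10.67, 11.27 and 10.73 at ZT0, 10.77, 10.29 and 10.05 at ZT4, 9.43, 8.69 and 8.88 at ZT8, 8.84, 9.11 and 9.68 at ZT12, 10.06, 10.77 and 10.65 at ZT16, and 10.86, 11.48 and 11.12 at ZT20. Its amplitude was 2.23 ± 0.24 with a peak at ZT21.6 (limma adjusted p = 4.7e-05). Its relative Ppp1r3b peaked at ZT16.7 with 1.64 ± 0.24, and a further probe set of that gene gave 1.70 at ZT16.8. The glycogen synthase gene Gys2 peaked at ZT12.0 with 1.32 ± 0.23, and Phka2, a phosphorylase kinase subunit, at ZT4.93 with 0.472 ± 0.070. Gluconeogenic and related genes held 4 of 18 called (22.2%), 3 under all scalings. G6pc, which releases glucose, was lowest at ZT8, at 9.33, 9.98 and 10.24, against 11.26 to 12.46 at ZT12, and its cosine (1.84 ± 0.41, adjusted p = 0.023) lost its call when any 1 of the ZT8 arrays was left out. Irs2, of insulin signalling, had 1.01 ± 0.20 at ZT0.25 and Irs1 0.719 ± 0.17 at ZT21.7. The call of Irs1 ended with 3 of 18 single omissions (ZT0 replicate 1 and ZT8 replicates 1 and 3).

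Amino acid breakdown and the urea cycle held 10 called genes of 37 (27%), 6 under all scalings, and 9 of the 10 peaked in the bin at ZT0. Cbs, which starts the conversion of homocysteine to cysteine, read 11.63, 12.01 and 11.72 at ZT0, 12.05, 11.71 and 11.62 at ZT4, 11.36, 11.72 and 10.83 at ZT8, 10.46, 10.96 and 11.01 at ZT12, 10.81, 10.81 and 11.19 at ZT16, and 11.80, 11.30 and 11.66 at ZT20. All 3 arrays of ZT0 were higher than those of ZT12 and ZT16, and the amplitude was 1.08 ± 0.17 with a peak at ZT1.18 (limma adjusted p = 0.0016). Amdhd1, of histidine breakdown, had 1.26 ± 0.24 at ZT1.45, Kynu, of tryptophan breakdown, 0.705 ± 0.093 at ZT23.6, and the decarboxylase gene Ddc 1.92 ± 0.27 at ZT20.7. Over the 37 genes the median ZT20 minus ZT8 difference was 0.179, against -0.0755 over all genes, and 30 of them had a positive one. This was not particular to the list: 61 of 73 respiratory chain genes and 25 of 35 fatty acid oxidation genes were positive. Ribosome biogenesis went the other way, with 4 of 40. The values are as deposited, and the balance of this contrast turned with array scale, as given below.

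Bile acid genes held 5 of 21 called (23.8%), 3 under all scalings. Abcb11, the bile salt export pump, read 11.23, 11.19 and 11.34 at ZT0, 11.32, 11.30 and 11.20 at ZT4, 10.92, 11 and 10.70 at ZT8, 10.48, 10.75 and 10.37 at ZT12, 10.51, 10.65 and 10.48 at ZT16, and 10.90, 11.01 and 10.71 at ZT20. The arrays of ZT0 and ZT4 were the 6 highest, with an amplitude of 0.837 ± 0.079 and a peak at ZT2.01 (limma adjusted p = 2.3e-05). Hsd3b7, of bile acid synthesis, peaked at ZT0.85 with 0.818 ± 0.089 and Fgfr4, the receptor for the gut hormone that restrains it, at ZT0.39 with 0.648 ± 0.097. The exporter gene Abcc2 peaked at ZT8.20 with 0.452 ± 0.059 and was not called with equal medians.

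Fatty acid oxidation held 6 of 35 called (17.1%), 4 under all scalings, with peaks on both sides of the day. Cpt1a, which admits fatty acids to mitochondria, peaked at ZT8.99 with 0.680 ± 0.097, while Pdk4, which restrains pyruvate oxidation, peaked at ZT20.9 with 1.88 ± 0.32. Plin2, which coats lipid droplets, peaked at ZT23.9 with 0.459 ± 0.081. Bdh1, of ketone body formation, had 0.552 ± 0.13 at ZT9.67 and was called under 2 of the 4 scalings. P450 genes and their regulators held 3 of 25 called (12.0%), 2 under all scalings, and conjugation enzymes and transporters 3 of 32 (9.38%), 1 under all scalings, near the share of all genes. Cyp2a5 had 1.23 ± 0.22 at ZT13.0, while Cyp3a25 (1.22 ± 0.31), Nat2 and Gstm6 were each called under 1 scaling.

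**Figure D4:**
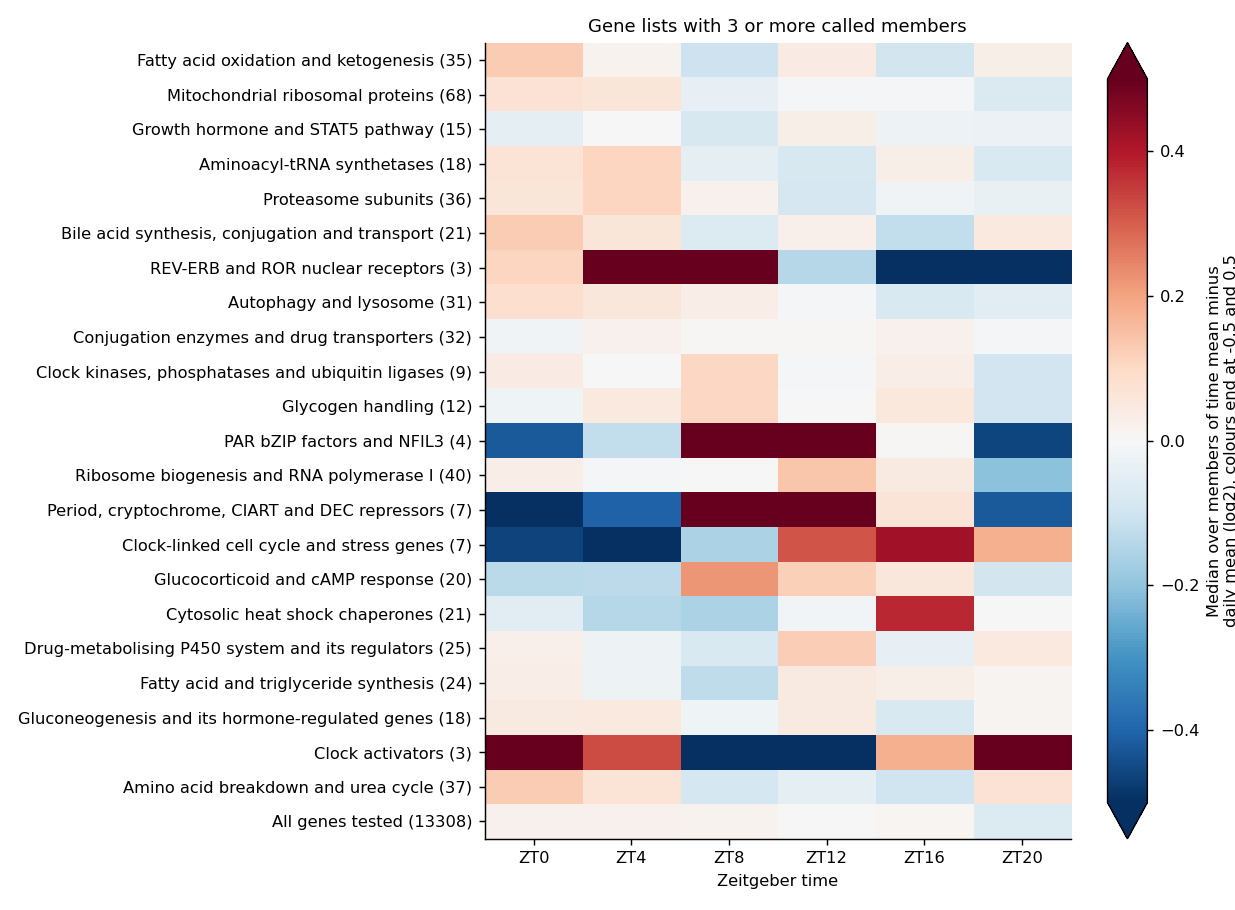
Median over the tested members of each gene list (number in brackets) of the time mean minus the daily mean, in log2 units, at the 6 times, for lists with 3 or more called genes and for all genes. Chaperones have a median of 0.377 and clock-linked genes of 0.419 at ZT16, amino acid genes one of 0.126 and bile acid genes one of 0.128 at ZT0, and all genes together one of -0.0673 at ZT20.

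Hormone-linked genes were mixed. Of 20 glucocorticoid and cAMP response genes, 5 were called, all 5 under each scaling: Fkbp5, Tsc22d3, Per1, Crem and Egr1. Per1 is also counted among the core clock genes, and Fkbp5 and Tsc22d3 among the clock-linked cell cycle and stress genes. These calls are therefore not separate from those given above. Fkbp5, which binds HSP90 at the glucocorticoid receptor, had 1.30 ± 0.22 at ZT13.7. Tsc22d3 had 0.926 ± 0.16 at ZT16.0 and Crem 0.694 ± 0.14 at ZT20.2. Of 15 growth hormone and STAT5 genes, 3 were called (20.0%), all 3 under each scaling. Bcl6, a repressor that opposes STAT5 in liver, ran from 7.06 to 10.14 over the arrays, with an amplitude of 1.94 ± 0.43 and a peak at ZT3.07. Onecut1 had 1.91 ± 0.43 at ZT15.0, and Stat5b 0.567 ± 0.11 at ZT0.85. Leaving out ZT16 replicate 3 ended the calls of Bcl6 and Onecut1, and leaving out ZT4 replicate 3 that of Onecut1.

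Genes of protein synthesis and turnover were called in shares on both sides of that of all genes. Aminoacyl-tRNA synthetases held 5 of 18 called (27.8%) and proteasome subunits 6 of 36 (16.7%), and 2 of each list were called under all scalings. Tars, the threonyl-tRNA synthetase, stood apart with 1.43 ± 0.15 at ZT22.2 (limma adjusted p = 3.1e-05), and Psmd11 with 0.581 ± 0.050 at ZT23.7 (adjusted p = 1.1e-05). Autophagy and lysosome genes held 6 of 31 called (19.4%), 3 of them under all scalings, among them the autophagy receptor gene Sqstm1 with 0.435 ± 0.072 at ZT1.39. Ribosome biogenesis had 3 of 40 (7.5%), all 3 under each scaling. Nolc1 and Rrp12 peaked at ZT13.0 and ZT13.9 and Ubtf, which acts on ribosomal DNA, at ZT5.93. Mitochondrial ribosomal proteins had 6 of 68 (8.82%), 3 under all scalings. Cytosolic ribosomal proteins had 2 of 62 (3.23%), both under all scalings, and the respiratory chain 2 of 73 (2.74%), 1 under all scalings. The call of Rps13 rests on 5 of 18 arrays at 4.44 to 5.33 while the other 13 lay at 7.60 to 9.08, and 8 of the 18 single omissions ended it.

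Further genes of large amplitude peaked late in the dark phase or around lights on. Near lights on, Leap2, which opposes ghrelin, had 2.59 ± 0.50 at ZT22.4 and Depp1, a FOXO target, 3.07 ± 0.67 at ZT1.91. Arrdc3, an arrestin-like adaptor, had 2.11 ± 0.44 at ZT2.69, and the immediate early gene Egr1 2.04 ± 0.44 at ZT3.03. Late in the dark phase, choline kinase alpha, Chka, had 2.25 ± 0.24 at ZT21.3 and the tubulin gene Tubb2a 2.24 ± 0.42 at ZT21.3. The calls of Depp1, at 6.05 on that array, of Irs2 and of Bcl6 ended when ZT12 replicate 1 was left out under quantile normalization or equal medians. Those of Arrdc3, Stat5b, Plin2 and Amdhd1, among others, ended without that array under equal medians alone.

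Times 12 h apart were also compared directly, with p-values adjusted over all genes and the 3 contrasts. At ZT12 against ZT0, 67 genes were higher (0.503%) and 187 lower (1.41%). Usp2 was higher by 3.35 ± 0.34 (SE), or 10.2-fold (limma adjusted p = 0.00022), Noct by 2.88 ± 0.67 and Ciart by 2.59 ± 0.49. Npas2 fell by 3.03 ± 0.33, Arntl by 2.25 and Nt5e, an enzyme that makes adenosine, by 2.04. At ZT16 against ZT4, 51 were higher (0.383%) and 108 lower (0.812%), and 10 of the 51 were heat shock chaperones, whose 21 tested genes all had a positive difference, with a median of 0.527. Hsph1 was higher by 1.57 ± 0.24 and Thrsp by 1.61 ± 0.36, and Nr1d1 fell by 4.13 ± 0.44 (limma adjusted p = 0.00025). At ZT20 against ZT8, 121 were higher (0.909%) and 200 lower (1.5%), with Arntl higher by 3.35 ± 0.24, or 10.2-fold (limma adjusted p = 2.5e-05), and Leap2 by 2.62 ± 0.61, while Dbp fell by 4.13 ± 0.50. Without ZT12 replicate 1 the 3 contrasts called 275, 222 and 447 genes, and without ZT16 replicate 1 the ZT16 minus ZT4 contrast called 47.

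The balance of directions turned with scale. Genes higher at the later time made up 26.4% of the calls at ZT12 against ZT0 as deposited, and 37.1%, 35.8% and 37.0% with quantile normalization, equal 75th percentiles and equal medians. At ZT16 against ZT4 the share was 32.1% as deposited, and 43.5%, 50.4% and 49.4%. At ZT20 against ZT8 it was 37.7% as deposited, and 68.6%, 75.1% and 80.5%. Markers of Kupffer cells had 0 of 15 called by the cosine, against 10.1% of all genes. Their median difference was -0.978 at ZT20 against ZT8, with 0 of 15 positive. At ZT16 against ZT4 it was 0.443, with 13 of 15 positive. The part of these cells in the counts was not tested. With the mean of the acute phase genes as a covariate, 93 of the 94 named genes called by the cosine were called again, and Hlf, Bhlhe41, Osbpl5, Rrn3 and Trim2, not called without it, were called.

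Some genes passed the F over the 6 times and not the cosine as deposited. Of these 24 genes, Osbpl5, an oxysterol-binding protein relative, read 7.23, 7.75 and 7.85 at ZT12 and between 6.55 and 7.16 at every other time. That single high time passed with a limma adjusted p of 0.014, beside 0.052 for its cosine and 0.00114 for the cosine with the acute phase covariate. Dnajb1, an HSP40 chaperone, was highest at ZT12 and ZT16, from 7.80 to 8.11, against 7.20 to 7.70 at the other times (adjusted p = 0.017). Rrn3, of RNA polymerase I initiation, was highest at ZT12, at 8.69, 8.83 and 8.75. Rgp1 was low at ZT20 alone, at 7.66, 7.81 and 7.76, and Trim2 and Mrps22 were the other genes named by this rule. Of these 6 genes, Dnajb1 and Mrps22 were called by the cosine under the other 3 scalings, Trim2 after quantile normalization and with equal medians, and Rrn3 with equal 75th percentiles.

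Set beside the 18 C57BL/6 WT livers, the mixed 129 WT livers had earlier fitted peaks. Strain, cohort and array processing cannot be told apart here. The cosine called 1349 genes in the mixed 129 livers and 2440 in the C57BL/6 livers, with 713 in both (52.9% of the mixed list and 29.2% of the C57BL/6 list). Over the 713, the median difference in peak, mixed minus C57BL/6, was -1.35 h (quartiles -2.41 and -0.298 h), and 568 peaked earlier in the mixed livers. The same held for the core genes: 13 were called in both, and all 13 peaked earlier, by a median difference of -1.64 h. Under the other scalings the medians were between -1.18 and -1.29 h over all shared genes and between -1.40 and -1.46 h over the core genes. Without ZT4 replicate 2 the core median was -1.55 h. These genes share their livers, and no test was made of the median.

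**Figure D5:**
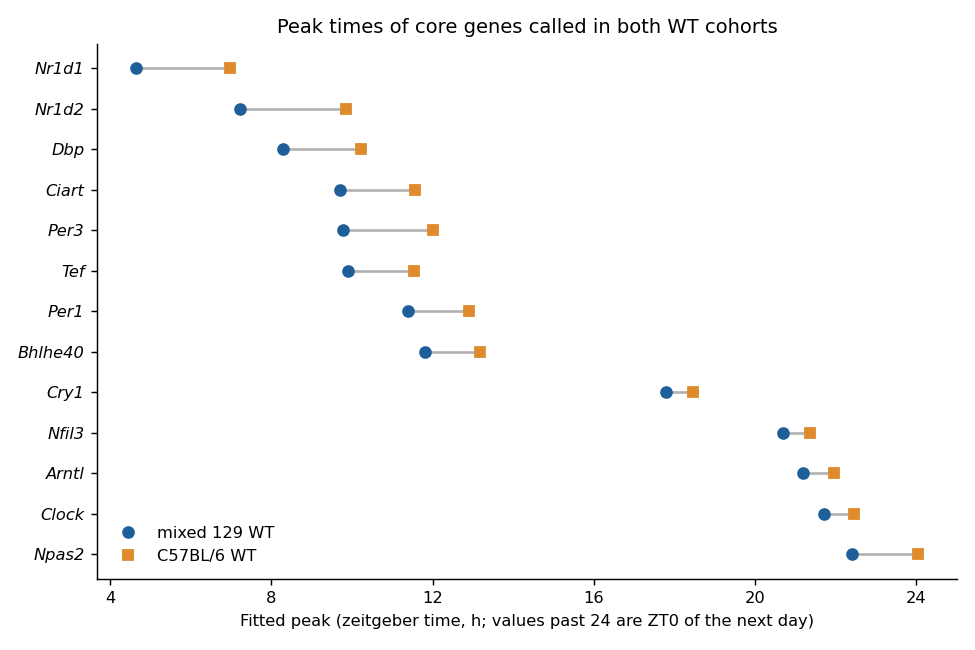
Fitted peak, in hours of zeitgeber time, of the 13 core genes called in both WT cohorts: circles are the mixed 129 livers, squares the C57BL/6 livers, and grey lines join them. Every circle lies to the left of its square, by 0.665 h in Nfil3 and 2.64 h in Nr1d2.

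Tested gene by gene, the rhythm differed between the cohorts in 11 of 13308 genes (0.0827%), with 2231 at an unadjusted p under 0.05. Nr1d1 peaked at ZT4.65 ± 0.32 h in mixed 129 livers and ZT6.96 ± 0.29 h in C57BL/6 livers, and Nr1d2 at ZT7.21 ± 0.36 h and ZT9.85 ± 0.34 h (limma adjusted p = 0.047 for each). Those 2 calls were narrow: each was lost with the replicate block (adjusted p = 0.0855) and with other settings. In Rfxank, a subunit of the RFX complex that controls MHC class II genes, the amplitude was 0.354 ± 0.088 in mixed 129 livers and 1.41 ± 0.088 in C57BL/6 livers, with peaks at ZT22.8 and ZT22.5 (limma adjusted p = 5.4e-05). For none of the other core genes did the difference pass, with adjusted p from 0.086 for Per3 to 0.90 for Bhlhe41.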

How the data were processed

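Probe set intensity values were made by the authors before they were deposited, with Affymetrix Expression Console 1.1.1 and PLIER 2.0 per the submitters' processing notes; the array normalization and genome build are not stated in what was used here. Of 41345 probe sets, 23521 have 1 gene symbol in GEO's platform annotation, 1814 several and 16010 none. A gene was its 1-symbol probe set of highest mean over the 72 arrays; values were taken as log2(intensity + 16), and the lowest 40% of 22180 genes were left out, leaving 13308.

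Fits used limma 3.58.1 in R 4.3.3 (eBayes with trend, Benjamini-Hochberg, adjusted p under 0.05): a 24 h cosine, an F over 6 times, 3 contrasts of times 12 h apart, an added 12 h component and, with the C57BL/6 WT arrays, cohort by cosine terms. The methods were tested on simulated data with noise drawn independently for each gene and array. In the real arrays 1 shared axis held 57.9% of the variance within times. The simulation therefore does not measure false calls under such shared variation. The gene lists and members were chosen with earlier results of these data known. Named genes are the 4 core clock lists, the 4 largest amplitudes of each peak bin, up to 4 called genes of smallest p in each list with 3 or more called or a high called share, the 3 highest and 3 lowest of each contrast, and the 6 of smallest p for other profiles, the 12 h component and the cohort difference; genes outside it were chosen after their values were seen. Predicted genes are counted only. Alternatives were other scalings, pseudocounts, filters, probe sets, array weights, no trend, a threshold of 0.01, the replicate number as a block and each array left out.

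Replicate numbers showed no clear pairing of the arrays. Deviations from the time means had a mean correlation of -0.0232 in the 45 same-numbered pairs of different times. In differently numbered pairs it was 0.00699. Of the same-numbered pairs, 17 had a correlation over 0.1, and 5 of the 18 arrays correlated best with an array of their own number. No pair of arrays held identical values. Promoter windows came from RefSeq (GRCm38.p6), with 10455 tested genes matched.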

Additional observations from a re-analysis of the deposited data

Results flagged for a closer look

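The 24 h rhythm differed between the mixed 129 and the C57BL/6 WT livers, by the test of cohort by cosine terms in limma, in 8 genes that are named here (all 11 called genes include 3 others). Rfxank had an amplitude of 0.354 ± 0.088 in mixed 129 livers and 1.41 ± 0.088 in C57BL/6 livers (SE, adjusted p = 5.4e-05). Dhrs9, a retinol dehydrogenase relative, had 0.218 ± 0.21 in mixed 129 livers and 2.51 ± 0.21 in C57BL/6 livers (adjusted p = 0.00027). It was dim in the mixed 129 livers, at 5.63 to 6.67 over the arrays, where the scale understates changes. The sialidase gene Neu2 had 0.618 with a peak at ZT15.5 in mixed 129 livers and 1.31 with a peak at ZT21.1 in C57BL/6 livers (adjusted p = 0.0013). Celsr1 had 0.546 in mixed 129 livers and 2.14 in C57BL/6 livers (adjusted p = 0.0017), and Cdcp1 had 0.264 in mixed 129 livers and 1.33 in C57BL/6 livers (adjusted p = 0.0044). Cdcp1 was dim in the mixed 129 livers: filtered on those 18 arrays alone it was not tested, and with no filter its adjusted p was 0.00611. Tbc1d20 peaked at ZT6.78 in mixed 129 livers and ZT11.2 in C57BL/6 livers (adjusted p = 0.014). Nr1d1 and Nr1d2 differed in rhythm with an adjusted p of 0.047 for Nr1d1 and 0.047 for Nr1d2. Strain, cohort and array processing cannot be told apart in any of them.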

How the results depend on the processing

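Of 133 alternatives that left out no array, 97 kept the result. A result was kept if it stayed on its side of the threshold or within 1.5 times the count. The share of peaks was kept if it stayed in the binomial confidence interval of the deposited share. The 24 h cosine (1349 genes) called 2565 with array weights, 842 with equal medians, 2195 with quantile normalization and weights, 450 at a threshold of 0.01, and without ZT12 replicate 1 664 with equal medians and 841 after quantile normalization. The F over 6 times (410) called 7836 with weights, 270 with equal medians and 132 at 0.01. The contrast ZT12 minus ZT0 (254) called 1364, 154 and 77 under the same settings. ZT16 minus ZT4 (159) called 1923, 89 and 34, and 104 with no filter. ZT20 minus ZT8 (321) called 3609 with weights, 98 at 0.01 and 208 with no filter. The 12 h component called 2 with weights, and the cohort difference (11) called 286 with weights, 7 with a pseudocount of 1 and 6 at 0.01. Array weights were estimated by an iteration that stopped before its tolerance. The share of peaks in the ZT4 and ZT8 bins (47.96%) was 28.23% after quantile normalization, 19.95% with equal medians, 21.88% with equal 75th percentiles, 43.7% with no filter, 50.95% with the lowest 60% left out, 53.72% with weights, 27.15% with quantile normalization and weights, 43.87% over all probe sets, 53.81% with the acute phase covariate and 35.78% at 0.01. Without ZT12 replicate 1 it was 20.78% with equal medians and 29.01% after quantile normalization. Lists with 3 or more called genes numbered 22, and 14 at 0.01. The cause of these shifts was not tested.

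Leaving out single arrays gave 901 to 1585 genes for the cosine, 219 to 525 for the F (lowest without ZT8 replicate 1), 0 to 2 for the 12 h component, 7 to 61 for the cohort difference (highest without ZT12 replicate 3), 133 to 275 for ZT12 minus ZT0, 47 to 222 for ZT16 minus ZT4 and 147 to 447 for ZT20 minus ZT8. The peak share was then 41.9% to 52.11%, and the array median amplitude 0.04643 to 0.08177. With the replicate block the cosine called 1227 genes, the F 284, the contrasts 201, 125 and 234, and the cohort difference 9. The amplitude difference of Nr1d2 between cohorts was -0.1229 as deposited, ran from -0.2226 to 0.0001962 over the single omissions, and was above 0 only without ZT4 replicate 1. Of 94 named genes called by the cosine, 74 were called with every array left out in turn and 78 with equal medians. Chosen after seeing the data were the 17-array scalings, the acute phase covariate, the core peaks without ZT4 replicate 2 and the cohort peak differences under other scalings.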
